A study of Mus musculus with 2 samples.

Results

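The translation initiation factors described here are the mouse genes whose symbols start with Eif and a digit, the eukaryotic initiation factors and the proteins that bind or modify them, read in adrenal gland. They were chosen by symbol alone, leaving out the gamma subunit genes of eIF2, which lie on the sex chromosomes, and named pseudogenes. The rule matched 54 annotated genes, and 51 of these had at least 1 read, among 16945 annotated genes with a read. Eif5a2, a second eIF5A gene, Eif4e1b, an oocyte cap-binding protein, and Eif2c5, annotated as a long noncoding RNA, had no read in either library.

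Both libraries are long-read RNA-seq of adrenal glands from female B6CASTF1/J mice, 36 days old, first-generation offspring of a cross between the C57BL/6 and CAST strains. They form 1 group with no treatment and no control, and the labels number them as biological replicates 1 and 2. Replicate 1 began with 1 µg of RNA, and no amount is labelled for replicate 2. One label gives both libraries the same animal number and another gives different ones, so every test below compares these libraries only and its spread may be technical.

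Translation initiation begins when eIF2 brings the initiator tRNA to the small ribosomal subunit, where eIF1, eIF1A, eIF5 and the large eIF3 complex hold the ribosome open for scanning. The cap-binding complex eIF4F, made of eIF4E, eIF4G and the helicase eIF4A, loads the mRNA, and eIF5B then joins the large subunit. Cells set the rate through eIF2B, which recharges eIF2, through kinases that phosphorylate eIF2 alpha, and through proteins that sequester eIF4E, and in the adrenal cortex protein synthesis is needed for the acute steroid response to corticotropin.

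Replicate 1 held 1144572 reads of annotated genes and replicate 2 held 414588. Levels are given as CPM, reads per 1000000 of these, and since a long read stands for a single transcript molecule they were not divided by length. The upper limit that a count of 0 allows, 3 reads, equals 2.62 CPM in replicate 1 and 7.24 CPM in replicate 2. All 7 cortex markers were read and summed to 64044 CPM in replicate 1 and 82294 CPM in replicate 2, and all 6 medulla markers to 9960 CPM and 6751 CPM in the same order, so markers of both parts of the gland were present. The cortex sums follow Cyp11a1, at 20811 CPM in replicate 1 and 41366 CPM in replicate 2. Hsd3b1 was also higher in replicate 2, while Cyp21a1, Star, Cyp11b1, Nr5a1 and Mc2r had more CPM in replicate 1. Skeletal muscle markers, with 5 of 6 read, summed to 875 CPM in replicate 1 and 4.82 CPM in replicate 2, and adipocyte markers, with 5 of 5 read, to 3184 CPM and 5497 CPM in the same order. Most of the adipocyte difference was in Fabp4, at 771 CPM in replicate 1 and 2914 CPM in replicate 2. Adipoq and Cfd were also higher in replicate 2, and Plin1 and Lep in replicate 1. The part of these tissues in the differences between libraries below was not tested. In whole glands, fewer cells of a type and less RNA per cell cannot be told apart.

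The 51 members took 10565 reads in replicate 1 and 3348 reads in replicate 2. They made up 0.923% of replicate 1 and 0.808% of replicate 2, a mean of 8653 ± 817 CPM (SD, n = 2). The median member stood at 121 CPM, against 9.96 CPM over all genes with a read. Of the members, 49 were read in both libraries and 47 had the 10 reads in total needed for a test between them. The members not tested were Eif2ak2, Eif2ak3, Eif3j2 and Eif4ebp3.

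The eIF3 complex had the largest summed level, 2335 CPM over its 14 genes in replicate 1 and 1949 CPM in replicate 2 (mean 2142 ± 273, SD). The eIF4F group followed at 1993 CPM in replicate 1 and 1645 CPM in replicate 2 over 10 genes. Besides the eIF4F complex it holds the helicase cofactors and related genes such as Eif4g2 and Eif4e2. The 6 start site selection genes summed to 1851 CPM in replicate 1 and 1826 CPM in replicate 2. The order of these sums between the last-named pair changed between the libraries, so they do not differ beyond their spread. The single gene Eif5a reached 912 CPM in replicate 1 and 769 CPM in replicate 2. Smaller sums were those of initiator tRNA delivery at 653 CPM and 555 CPM, eIF2B at 431 CPM and 318 CPM, and the eIF4E-binding proteins at 317 CPM and 420 CPM, each in replicates 1 and 2. The subunit joining factors summed to 369 CPM and 258 CPM and the exon junction helicase Eif4a3 stood at 309 CPM and 256 CPM, in the same order. The 4 eIF2 alpha kinases together had 60.3 CPM in replicate 1 and 79.6 CPM in replicate 2, the lowest sum of any complex.

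**Figure D1:**
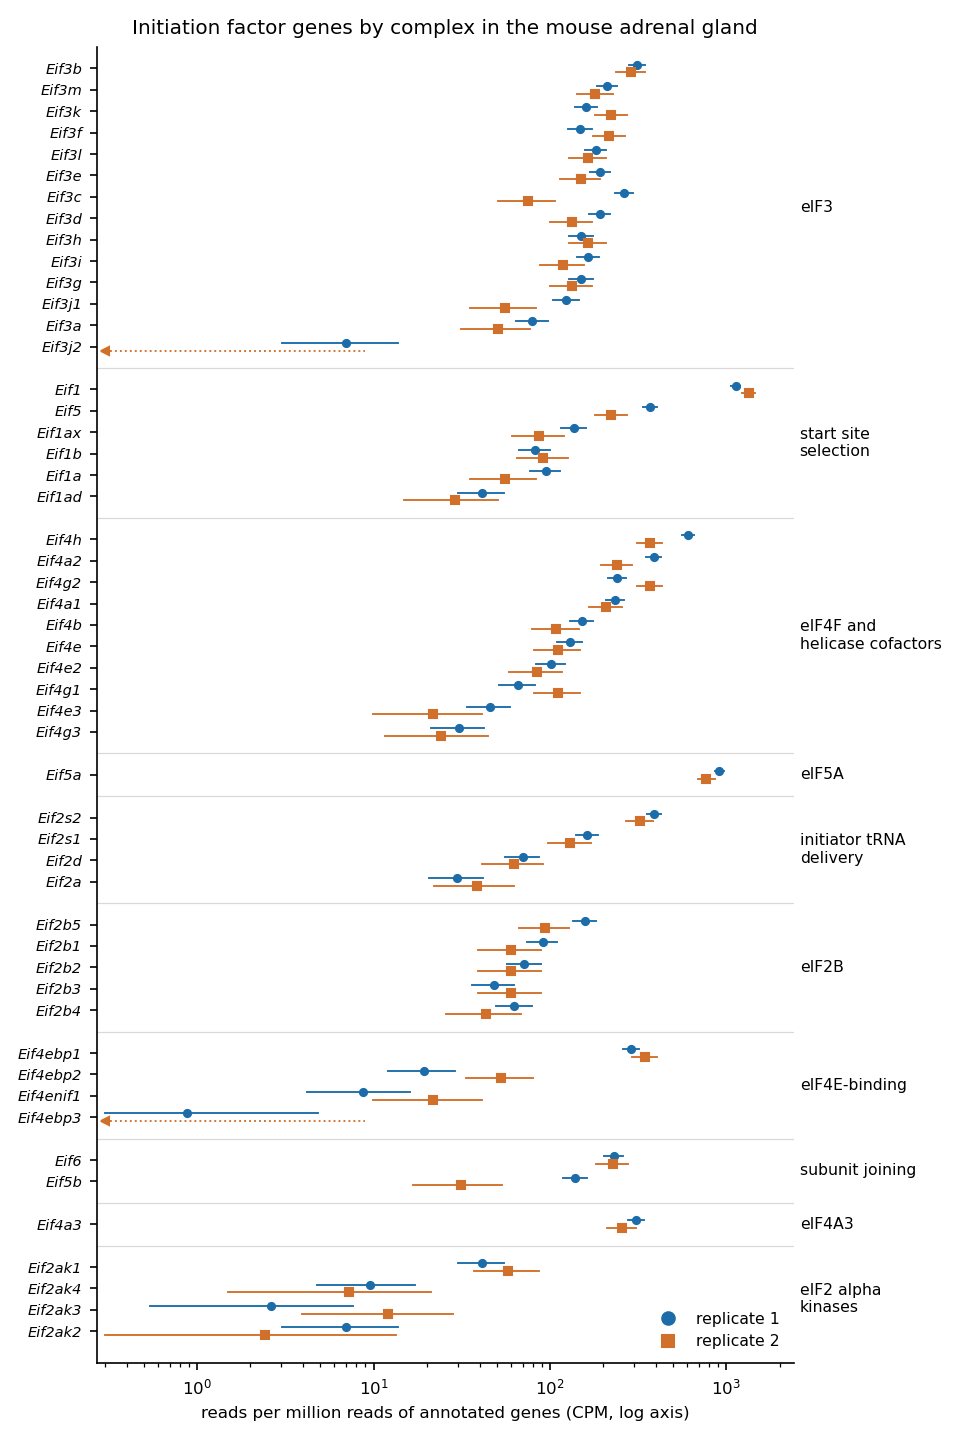
Level of each of the 51 members in CPM on a log axis, grouped by complex, with replicate 1 as blue circles, replicate 2 as orange squares and 95% Poisson intervals of counting error as lines. A left-pointing arrow with a dotted line marks 0 reads. Eif1 lies furthest right at 1128 CPM in replicate 1 and 1341 CPM in replicate 2, and among tested members Eif5b and Eif3c show the widest separation between the libraries.

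Between the libraries, 12 of 47 tested members passed the threshold, 25.5%, against 14.0% of all 9885 genes tested. These 12 were 6 higher and 6 lower in replicate 1, where 6.13% of all genes tested were higher and 7.86% lower. Members were read more deeply than most genes, with a median of 219 reads in total against 50 over all genes tested, which bears on how many can pass. The test was a two-sided exact binomial test of each gene's reads against scaled library sizes, Benjamini-Hochberg adjusted over all genes with a threshold of 0.05. The median log2 ratio of replicate 1 over replicate 2 was 0.19 over members and 0.01 over all genes. Scaled by total reads instead, 11 members passed, 7 higher and 4 lower in replicate 1. Each complex is described below with its members past this threshold.

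Within eIF3, 13 of 14 genes lay within a narrow range. Leaving out Eif3j2, the highest, Eif3b, exceeded the lowest, Eif3a, by 3.90-fold in replicate 1 and 5.67-fold in replicate 2, and both genes encode scaffold subunits. Eif3b had 310 CPM in replicate 1 and 287 CPM in replicate 2. Eif3m, a subunit of the structural core, had 211 CPM in replicate 1 and 181 CPM in replicate 2. Eif3a had 79.5 CPM in replicate 1 and 50.7 CPM in replicate 2. Of 13 tested, 2 were higher and 2 lower in replicate 1, and 9 did not pass. Over all genes tested, 6.13% were higher and 7.86% lower.

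Eif3c, a core subunit that contacts eIF1 and eIF5, had 264 CPM from 302 reads in replicate 1 and 74.8 CPM from 31 reads in replicate 2. It was higher in replicate 1 by 1.73 on the log2 scale, with an exact binomial adjusted p of 5.1e-12. Eif3j1, the loosely held subunit that sits near the mRNA channel, had 124 CPM in replicate 1 and 55.5 CPM in replicate 2. Its log2 ratio was 1.08, with an exact binomial adjusted p of 0.0043. Eif3j1 no longer passed on full-length reads, at 0.84, or without models lacking the 3′ part, at 0.80. Eif3f, a subunit with an MPN domain, had 149 CPM in replicate 1 and 217 CPM in replicate 2. Its log2 ratio of replicate 1 over replicate 2 was -0.62, with an exact binomial adjusted p of 0.014. With replicate 1 thinned to the depth of replicate 2, Eif3f no longer passed, at -0.58. Eif3k, a peripheral subunit, had 161 CPM in replicate 1 and 222 CPM in replicate 2, a log2 ratio of -0.53 with an exact binomial adjusted p of 0.036. This last call was lost in 4 of the 7 alternative settings tried.

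Eif3j2 is a near copy of Eif3j1, identical at 781 of 783 aligned coding bases. Replicate 1 held 142 reads of Eif3j1 and 8 of Eif3j2, and replicate 2 held 23 of Eif3j1 and 0 of Eif3j2, which allows up to 7.24 CPM there. Reads of these genes could be split between them by the upstream assignment, so the level of each is uncertain.

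Among the start site selection factors Eif1, which guards the choice of start codon, was the highest member of all. It had 1128 CPM in replicate 1 and 1341 CPM in replicate 2, above 99.6% of genes, a log2 ratio of -0.32 (exact binomial adjusted p = 0.00030). Eif1b, its paralogue with 81.1% identical coding bases, had 82.1 CPM in replicate 1 and 91.7 CPM in replicate 2. Eif1 thus exceeded Eif1b by 13.7-fold in replicate 1 and 14.6-fold in replicate 2. Eif5, which makes eIF2 hydrolyse GTP when the start codon is found, had 370 CPM in replicate 1 and 222 CPM in replicate 2, a log2 ratio of 0.66 with an exact binomial adjusted p of 0.00058. Counted on full-length reads alone its ratio was -0.43 and did not pass the threshold. Eif1ax, an eIF1A gene on the X chromosome, had 136 CPM in replicate 1 and 86.8 CPM in replicate 2. It exceeded its autosomal paralogue Eif1a by 1.44-fold in replicate 1 and 1.57-fold in replicate 2, with 85.6% of coding bases identical, and neither gene passed the threshold between libraries.

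In the eIF4F group, the highest gene was Eif4h, a cofactor that stimulates the helicase. It had 607 CPM in replicate 1 and 369 CPM in replicate 2, and was higher in replicate 1 by 0.65 on the log2 scale (exact binomial adjusted p = 5.4e-06). Eif4a2 and Eif4a1 encode close paralogues of the helicase. Eif4a2 had 387 CPM in replicate 1 and 239 CPM in replicate 2, a log2 ratio of 0.62 with an exact binomial adjusted p of 0.00087. On full-length reads Eif4a2 no longer passed, at 0.41. Eif4a1 had 234 CPM in replicate 1 and 207 CPM in replicate 2 and did not pass. Eif4a2 exceeded Eif4a1 by 1.65-fold in replicate 1 and 1.15-fold in replicate 2, but the level of Eif4a1 is uncertain. A processed pseudogene identical to it at 1217 of 1218 coding bases, Eif4a-ps4, held 167 reads in replicate 1 and 53 reads in replicate 2. Eif4a1 held 268 and 86 reads, and Eif4a2 443 and 99, in the same order. Were the reads of this copy those of Eif4a1, the excess of Eif4a2 would shrink in replicate 1 and reverse in replicate 2.

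Of the 3 scaffold genes of the eIF4G family, 2 passed the threshold over all reads, both lower in replicate 1. Of all genes tested, 7.86% were lower there. Eif4g2, a scaffold that lacks the eIF4E binding site, had 239 CPM in replicate 1 and 369 CPM in replicate 2, a log2 ratio of -0.69 with an exact binomial adjusted p of 8.4e-05. Eif4g1, the main scaffold, had 65.5 CPM in replicate 1 and 111 CPM in replicate 2, a log2 ratio of -0.82 with an exact binomial adjusted p of 0.028. That call for Eif4g1 was lost with scaling by total reads, and also without genomic reads, those that overlap a gene without matching its splice sites, of which it had 0 in replicate 1 and 14 in replicate 2. On full-length reads, 13 in replicate 1 and 3 in replicate 2, its log2 ratio was 0.48 and did not pass. Eif4g3, a further scaffold, had 30.6 CPM in replicate 1 and 24.1 CPM in replicate 2 and did not pass. The cap-binding gene Eif4e had 130 CPM in replicate 1 and 111 CPM in replicate 2 and did not pass.

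Eif4ebp1, which sequesters eIF4E until mTOR phosphorylates it, was the fifth highest member. It had 288 CPM in replicate 1 and 345 CPM in replicate 2 and did not pass the threshold. Its reads exceeded those of Eif4e by 2.21-fold in replicate 1 and 3.11-fold in replicate 2. Eif4ebp2, its paralogue, had 19.2 CPM in replicate 1 and 53.1 CPM in replicate 2, from 22 reads in each library. It was lower in replicate 1 by a log2 ratio of -1.49, with an exact binomial adjusted p of 0.0082. However, 19 of these reads in replicate 1 and 21 in replicate 2 were of the genomic class. Eif4enif1, which carries eIF4E into the nucleus and to processing bodies, had 8.74 CPM in replicate 1 and 21.7 CPM in replicate 2. Eif4ebp3 had 1 read in replicate 1 and 0 in replicate 2.

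Of the genes that deliver initiator tRNA or recharge eIF2, 0 of 9 passed the exact binomial test between libraries, against 14.0% of all genes tested. With 9 genes this count does not set them apart from that share. Eif2s2, the beta subunit of eIF2, had 391 CPM in replicate 1 and 323 CPM in replicate 2. Eif2s1, the alpha subunit that the stress kinases phosphorylate, had 163 CPM in replicate 1 and 130 CPM in replicate 2. Eif2s2 exceeded Eif2s1 by 2.40-fold in replicate 1 and 2.48-fold in replicate 2 over all reads. Over full-length reads it did so by 1.81-fold and 2.47-fold, in the same order. However, the full-length reads of Eif2s2 in replicate 1 include 124 of annotated retained-intron transcripts that stop in exon 4. The leading coding transcripts held 198 reads of Eif2s2 and 175 of Eif2s1 in replicate 1, a smaller excess. In replicate 2 they held 121 and 53, in the same order. Eif2d, which can place tRNA without eIF2, had 69.9 CPM in replicate 1 and 62.7 CPM in replicate 2. The 5 eIF2B subunits spanned 3.27-fold in replicate 1 and 2.17-fold in replicate 2. Eif2b5, the catalytic epsilon subunit, was the highest at 157 CPM in replicate 1 and 94.1 CPM in replicate 2. Eif2b1 had 90.9 CPM and Eif2b2 71.6 CPM in replicate 1, and both had 60.3 CPM in replicate 2, where the subunits cannot be ordered beyond counting error. Eif2b5 had an exact binomial p of 0.0083 unadjusted and 0.057 adjusted, the only one of the 9 genes under 0.05 unadjusted. It passed the exact binomial test in 5 of the 7 alternative settings, DESeq2 size factors among them, always higher in replicate 1.

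Among the eIF2 alpha kinases the transcripts of Eif2ak1, the kinase that senses haem, led. Eif2ak1 had 41.1 CPM in replicate 1 and 57.9 CPM in replicate 2. Eif2ak4, which senses amino acid shortage, had 9.61 CPM in replicate 1 and 7.24 CPM in replicate 2. Eif2ak3, the kinase of the endoplasmic reticulum stress response, had 3 reads in replicate 1 and 5 in replicate 2. Eif2ak2, which senses double-stranded RNA, had 8 reads in replicate 1 and 1 in replicate 2. Neither of the kinases tested passed the threshold.

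Eif5b, the GTPase of subunit joining, had 139 CPM from 159 reads in replicate 1 and 31.4 CPM from 13 reads in replicate 2. Its log2 ratio of 2.04 was the widest of the 47 members tested, with an exact binomial adjusted p of 8.4e-08. Eif6, which keeps free large subunits apart, had 230 CPM in replicate 1 and 227 CPM in replicate 2. Eif5a, whose product carries the hypusine residue and helps elongation and termination, and Eif4a3, the core of the exon junction complex, did not pass the threshold.

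Most reads of the members were full-length. Such models, those that match an annotated transcript or join splice sites in an unannotated spliced form, held 82.1% of member reads in replicate 1 and 85.2% in replicate 2. Over all annotated genes they held 81.9% in replicate 1 and 75.7% in replicate 2. Annotated transcripts alone held 79.1% of member reads in replicate 1 and 82.0% in replicate 2, and 98.2% and 99.0% of those, in the same order, were of protein-coding transcripts. Long transcripts were read in full less often. The median full-length share was 92.5% over the 11 members of up to 1500 bp, 86.9% over the 21 of 1500 to 3000 bp and 52.6% over the 15 above that. Spearman's rho of length and share was -0.49 over the 47 members with 10 or more reads, which share the same libraries, and describes these genes only.

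**Figure D2:**
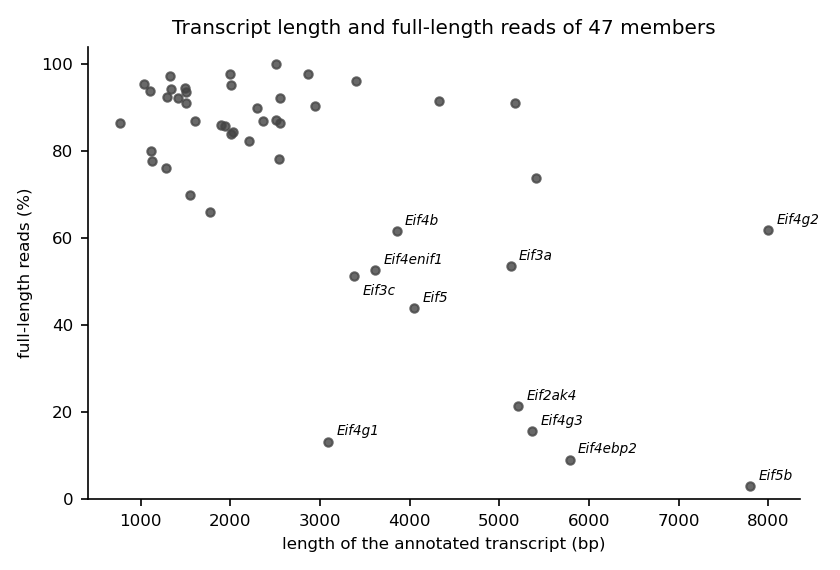
Percent of reads in full-length models, both libraries together, against the length in bp of the annotated transcript, with 1 point for each of the 47 members with at least 10 reads. Points above 3000 bp spread from 2.91% for Eif5b to 96.2%, and the named points are the members with the lowest shares.

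Incomplete reads that held the splice junctions of the 5′ part of a transcript and not those of the 3′ part separated the libraries. Their models are said here to lack the 3′ part. They held 6.08% of member reads in replicate 1 (642 reads, with a 95% Wilson interval from 5.64 to 6.55%), against 0.568% of those in replicate 2 (19 reads, from 0.364 to 0.885%). Over all annotated genes the shares were 1.76% in replicate 1 and 0.476% in replicate 2. Eif5, Eif2s2, Eif3c, Eif5b, Eif4a2 and Eif3a held 569 of the 642 such reads in replicate 1, 88.6%, and 15 of 19 in replicate 2. In Eif4a2 the most read model of this class ended in the last exon, with 27 reads in replicate 1 and 1 in replicate 2. Of 443 Eif4a2 reads in replicate 1, 8 stopped short of that exon, so this class does not always lack the 3′ end.

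Counting every model whose 3′ end lay before the last exon, 904 of 10565 member reads stopped short in replicate 1, 8.56%, and 43 of 3348 in replicate 2, 1.28%. Eif5b was the extreme case, with 97.5% of its reads short in replicate 1, with a 95% Wilson interval from 93.7 to 99.0%, and 69.2% in replicate 2, with one from 42.4 to 87.3%. Only 4 reads of Eif5b in each library reached its last exon. For Eif5 the shares were 60.3% in replicate 1 and 6.52% in replicate 2, and 168 reads in replicate 1 and 86 in replicate 2 reached the end. Eif2s2 had 52.1% short in replicate 1 and 8.21% in replicate 2. Eif3a had 41.8%, Eif3c 30.1%, Eif2b3 27.3% and Eif3j1 22.5% short in replicate 1, and all 4 had 0 short in replicate 2, from 21 to 31 reads each. Eif1, Eif4e, Eif3b, Eif6 and Eif4h each had under 3% short in either library.

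**Figure D3:**
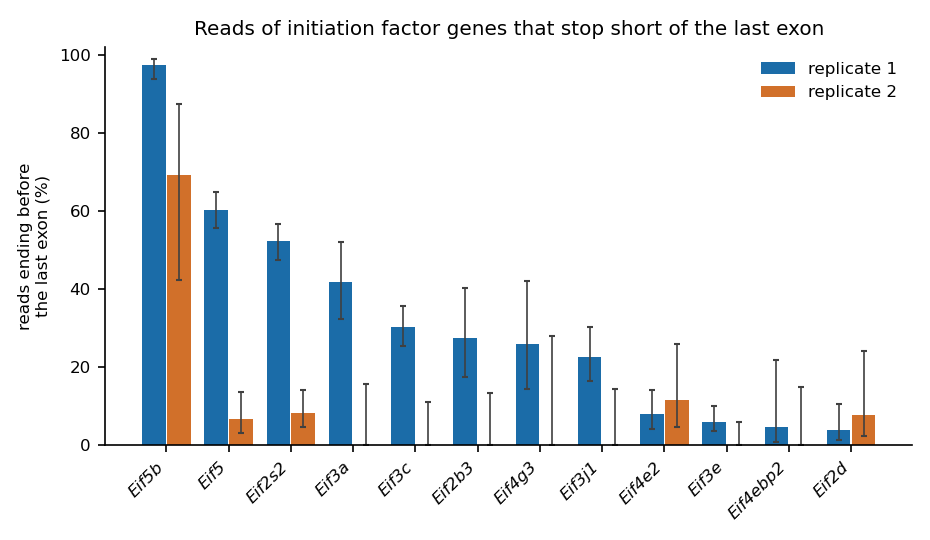
Percent of reads whose model ends before the gene's last exon, for the 12 members with the highest share in replicate 1 among those with at least 20 reads there and 10 in replicate 2. Blue bars are replicate 1, orange bars replicate 2, and lines are 95% Wilson intervals. Eif5 stands at 60.3% in replicate 1 and 6.52% in replicate 2, and Eif4e2 at 7.76% in replicate 1 and 11.4% in replicate 2.

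All 7 distinct ends in coding sequence of such models with at least 10 reads are shown by the bases of the transcript that follow. Each line gives 30 bases of GENCODE M21 coding sequence, 5′ to 3′, starting just past the end of a model, with every A in capitals.
Eif5, chr12, plus strand, past 111541727: AAAgAAAgAAAAggAAAAgAAAAAtAgAAA
Eif5b, chr1, plus strand, past 38021811: gAAcgAttAgAAcAAgAAAAAAgAgAAAgg
Eif5b, chr1, plus strand, past 38017931: tgAgAAcgAcAttctgAgAgAgctggAggA
Eif2s2, chr2, minus strand, past 154884311: ctttAgAAgAtgAAgAcAgcAAAAAAgAtg
Eif3c, chr7, minus strand, past 126564416: ctttgggAAgAtAAAgAAggAAAgAAgAAg
Eif3j1, chr2, plus strand, past 122041673: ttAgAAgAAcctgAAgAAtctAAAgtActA
Eif3a, chr19, minus strand, past 60769866: AgcgAgAAgAAAgAgAAcgtgctgAgAgAg

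Of these 7 ends, 6 lay at the end of an annotated exon. The end of a model is the one deposited, and single reads merged into it may stop elsewhere. The 30 bases after these ends held 10 to 23 A, with a median of 15, against a median of 8 over the 72739 overlapping windows of that length in the coding sequences of the members. Of the 7 ends, 5 were among the tenth of windows richest in A. The run AAAA occurred after 3 of them, on the transcript strand, and in 14.0% of all windows. After the end in Eif5 there were 23 A of 30, a content that 0.033% of windows reached, and after the end in Eif5b at 38017931 there were 10, which 36.3% of windows reached. The part of this sequence in where reads stopped was not tested.

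**Figure D4:**
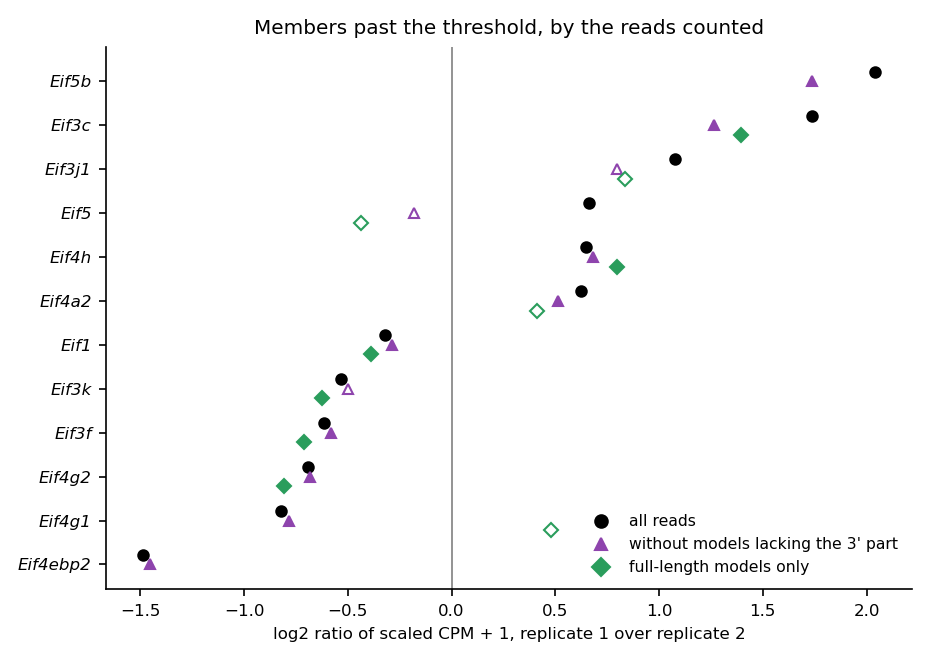
Log2 ratio of scaled CPM + 1, replicate 1 over replicate 2, of the 12 members past the threshold, counted on all reads (black), without models lacking the 3′ part (purple) and on full-length models only (green), with filled symbols where the adjusted p is under 0.05. Eif5b and Eif4ebp2 have too few full-length reads for a green symbol, and Eif5 and Eif4g1 lie on the other side of 0 there, at -0.43 and 0.48.

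Which members passed depended on these reads. On full-length reads alone, 8 of 43 members passed the exact binomial test, 3 higher and 5 lower in replicate 1, against 15.2% of all genes so tested. Shared with the 12 above were 6, namely Eif4h, Eif3c, Eif4g2, Eif3f, Eif3k and Eif1, and Eif2b5 and Eif4ebp1 were added. Eif3c kept a log2 ratio of 1.39 on full-length reads, from 152 reads in replicate 1 and 19 in replicate 2. Leaving out only the models that lack the 3′ part, 10 members passed and 9 of these were shared. Eif5 then stood at -0.18 and Eif5b at 1.74. For Eif5b this setting left many short reads in place. Of its 159 reads in replicate 1, 155 stopped short of the last exon, and 81 were in models of this class. Only 4 reads in each library reached that exon, so 1.74 does not describe complete Eif5b transcripts.

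In most members a single isoform carried nearly all full-length reads. Full-length reads reached 20 in each library in 33 members. Of these, 24 had a leading isoform of 90% or more, and all 33 leading isoforms were annotated protein-coding transcripts. The median leading share was 95.3% over these members and 92.5% over all 3015 genes tested. The leading share differed between libraries in 1 of the 33, against 1.03% of all genes tested.

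That gene was Eif2s2. Its 9-exon coding transcript held 61.3% of full-length reads in replicate 1 (198 of 323) and 92.4% in replicate 2 (121 of 131), and the difference passed with a Fisher's exact adjusted p of 1.1e-09. The rest were almost all of annotated retained-intron transcripts, one of 2 exons with 80 reads in replicate 1 and 6 in replicate 2, and one of 3 exons with 44 and 3 in the same order. Both of these transcripts end inside exon 4 of the coding transcript, chr2:154884311-154884446 on the minus strand, where the incomplete spliced models of Eif2s2 stop too. Together 228 of 447 Eif2s2 reads ended in that exon in replicate 1, 51.0%, and 11 of 134 in replicate 2, 8.21%. The retained-intron transcripts count as full-length by class although they stop short of the last exon.

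Alternative splicing that changes the protein was read in a few members in both libraries. These forms were followed after their values had been seen and are given as descriptions. Eif4h has an optional coding exon of 60 bases at chr5:134624441-134624500 on the minus strand. It was kept in 259 of 631 spanning reads in replicate 1, 41.0% with a 95% Wilson interval from 37.3 to 44.9%, and in 60 of 120 in replicate 2, 50% with one from 41.2 to 58.8%. The coding sequence is 744 bases with the exon and 684 without, and the leading share of Eif4h did not pass the test between libraries. The sequences from the annotated transcripts show the exon in capitals between its neighbours and the junction without it.
Eif4h, exon kept: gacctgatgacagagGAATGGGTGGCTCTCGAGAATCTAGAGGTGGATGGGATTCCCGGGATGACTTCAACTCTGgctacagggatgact
Eif4h, exon skipped: gacctgatgacagaggctacagggatgact

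Eif4a2 had several alternative forms, with a leading share of 62.0% in replicate 1 and 60.7% in replicate 2. In 95 of 404 reads in replicate 1 (23.5%) and 22 of 91 in replicate 2 (24.2%), exon 2 began 3 bases upstream, which adds a codon to the coding sequence. The lines below show this start of exon 2 on the plus strand of chromosome 16, with the added bases, at the start of chr16:23108585-23108602, in capitals.
Eif4a2, longer exon 2: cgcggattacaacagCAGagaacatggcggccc
Eif4a2, shorter exon 2: cgcggattacaacagagaacatggcggccc
Exon 4 was skipped in 6.51% of spanning reads in replicate 1 (27 of 415) and 2.13% in replicate 2 (2 of 94), with overlapping 95% Wilson intervals.

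A junction of an extra exon after exon 10 of Eif4a2 was held by 58 of 374 spanning reads in replicate 1, 15.5%. In replicate 2 it was held by 13 of 95, 13.7%. These counts pool forms that end the exon at different sites. An annotated form, chr16:23112351-23112457, is 107 bases long, and its transcript had 2 full-length reads in replicate 1 and 4 in replicate 2. Another annotated transcript, of 11 exons, runs on past that exon end. It had 16 full-length reads in replicate 1 and 2 in replicate 2. The reading frame ends within a few codons of the start of the extra exon, at the stop shown in capitals. The coding sequence of both annotated transcripts is 1086 bases in place of 1221.
Eif4a2, extra exon: aaactatattcacaggagtcgaTAG
Eif4a2, no extra exon: aaactatattcacagaattggcagaggggg

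Eif4e2, a cap-binding protein that does not recruit eIF4G, had no dominant isoform. The transcript with the most reads over both libraries held 32.3% of full-length reads in replicate 1 and 39.3% in replicate 2. Another held 35.5% in replicate 1, where it was the most read, and 17.9% in replicate 2. The downstream end of its first exon was used in 52.4% of spanning reads in replicate 1 (54 of 103) and 64.3% in replicate 2 (18 of 28), and the distal last exon in 26.7% (24 of 90) and 22.7% (5 of 22), in the same order. The coding lengths of its 3 most read transcripts were 720, 735 and 702 bases. Neither event of Eif4e2 had separate 95% Wilson intervals in the libraries.

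The remaining members whose leading isoform was under 90% were Eif2b5, Eif3d, Eif5, Eif2b3 and Eif2ak1, at 79.5% to 90.2% in replicate 1 and 81.0% to 87.5% in replicate 2. In Eif5a, a downstream first exon was joined to the exon with the start codon in 2.71% of reads in replicate 1 and 2.17% in replicate 2. An extra noncoding exon of Eif5a was kept in 3.11% of reads in replicate 1 and 3.56% in replicate 2. Eif2b4, the delta subunit of eIF2B, had junctions of an alternative coding transcript in 15.7% of spanning reads in replicate 1 (8 of 51). In replicate 2 the share was 15.4% (2 of 13). Both that transcript and the leading one have 13 exons, with coding sequences of 1632 and 1572 bases. Another alternative transcript, of 12 exons and 1632 coding bases, had 9 full-length reads in replicate 1 and 1 in replicate 2.

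**Figure D5:**
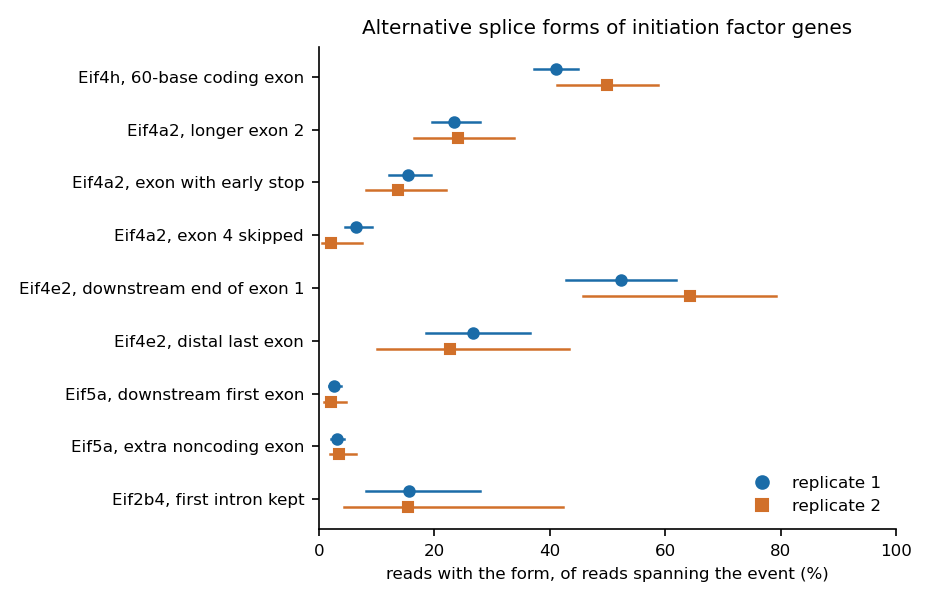
Percent of spanning reads with each of 9 splice forms in replicate 1 (blue circles) and replicate 2 (orange squares), with 95% Wilson intervals as lines. The intervals overlap in all 9, and the Eif4h exon lies near the middle of the axis at 41.0% and 50% in replicates 1 and 2. The row labelled as a kept first intron of Eif2b4 counts junctions of an alternative coding transcript. The early-stop row of Eif4a2 counts every form with a junction of that exon.

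Unannotated spliced models were many and mostly rare. Members had 292 such intron chains in 45 genes, of which 121 were classed as recombining known splice sites and 171 as using at least 1 new site, and 232 rested on a single read. By identical introns, 25 chains had a read in both libraries. Of these, 15, in 11 genes, had at least 2 reads in a library, and 4 had 3 or more in each. The leading one belonged to Eif4a2, with 14 reads in replicate 1 and 4 in replicate 2. It keeps the extra exon described above but ends it 4 bases later, at a donor site that opens the intron chr16:23112462-23113166, which makes the exon 111 bases long. The annotated transcript with the shorter form of the exon had 2 full-length reads in replicate 1 and 4 in replicate 2. The line below, chr16:23112448-23112471 on the plus strand, shows the exon end, the 4 added bases in capitals and the start of the intron that follows them.
Eif4a2, end of the extra exon: taaagagcgaGTCGgtatttatat

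Eif3i, a subunit with a WD-repeat fold, had an unannotated exon of 103 bases at chr4:129599157-129599259, with 3 reads in each library. Its length is not a multiple of 3. Known introns were combined anew in Eif3d, with 4 reads in each library, in Eif4e2, with 5 in replicate 1 and 3 in replicate 2, and in Eif3b, with 5 and 1 in the same order. Eif5 had 1 read in replicate 1 and 4 in replicate 2, and Eif2b1 had 3 and 1. Acceptor sites displaced by 2 or 3 bases were read in Eif3d, with 5 reads in replicate 1 and 1 in replicate 2, in Eif3j1 with 3 and 1, and in Eif3c with 2 and 1, in the same order.

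Other genes of the pathway were read alongside. Of 38 genes listed, 36 were tested and 10 passed the exact binomial test, 7 higher and 3 lower in replicate 1, against 14.0% of all genes tested called, 6.13% higher and 7.86% lower. Among elongation and release factors 6 of 11 tested were higher and 0 lower, and their sum was 4279 CPM in replicate 1 and 2644 CPM in replicate 2. Eef1a1, which brings tRNA to the elongating ribosome, had 1235 CPM in replicate 1 and 796 CPM in replicate 2. Eef2, the translocation factor, had 1147 CPM in replicate 1 and 437 CPM in replicate 2, a log2 ratio of 1.32 with an exact binomial adjusted p of 1.2e-35. Tpt1 had 759 CPM in replicate 1 and 531 CPM in replicate 2. Gspt1, a release factor, had 109 CPM in replicate 1 and 41.0 CPM in replicate 2, a log2 ratio of 1.32 with an exact binomial adjusted p of 0.0016.

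Cofactors outside the Eif names had 1 higher and 2 lower of 15 tested, against 6.13% higher and 7.86% lower of all genes tested. Paip2, which competes for poly(A)-binding protein, was the highest of them at 446 CPM in replicate 1 and 736 CPM in replicate 2. Its log2 ratio of -0.79 over all reads was -0.07 on full-length reads. Bzw1, a mimic of eIF5, had 263 CPM in replicate 1 and 178 CPM in replicate 2, and Pabpc1, the poly(A)-binding protein, had 109 CPM and 82.0 CPM in the same order. Pdcd4, which blocks the helicase eIF4A, had 127 CPM in replicate 1 and 38.6 CPM in replicate 2, with a log2 ratio of 1.62 and an exact binomial adjusted p of 2.0e-05. Pabpc4, a further poly(A)-binding protein, had 38.4 CPM in replicate 1 and 74.8 CPM in replicate 2, a log2 ratio of -1.01 with an exact binomial adjusted p of 0.028. It no longer passed on full-length reads, at -0.57, or without genomic reads, at -0.83.

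Of 10 signalling genes tested, 1 passed, against 14.0% of all genes tested. Mknk2, a kinase of eIF4E, had 97.9 CPM in replicate 1 and 251 CPM in replicate 2, a log2 ratio of -1.42 with an exact binomial adjusted p of 7.1e-11. Dohh, which completes hypusine on eIF5A, had 106 CPM in replicate 1 and 77.2 CPM in replicate 2. Rps6kb1, a kinase that acts on Eif4b, had 59.4 CPM in replicate 1 and 53.1 CPM in replicate 2.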

How the data were processed

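Counts of whole reads per transcript model were used as the authors deposited them, not normalized, 1 table per library. The accompanying notes give mm10 as the build and GENCODE M21 as the annotation, and per the annotation files the models and their classes are named by TALON. Per the labels' protocols the ENCODE long-read pipeline for mouse was used. For the aligner, tool versions and filters, nothing is stated in the files or labels used here. Exon numbers, lengths and coordinates came from the deposited files, per the file headers. How reads were shared among near-identical copies is not given, so levels of such copies are uncertain.

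Total reads were 1223776 in replicate 1 and 453761 in replicate 2. Model counts were summed by gene, and CPM is per 1000000 reads of annotated genes, without spike-ins and loci outside the annotation. Ratios used CPM scaled by edgeR 4.0.16 TMM factors (1.03 and 0.976) with a pseudocount of 1. A count model cannot be fitted between single libraries, so an exact binomial test was used over genes with at least 10 reads. Leading full-length isoforms (the classes Known, NIC and NNC) were compared by two-sided Fisher's exact test where each library had 20 or more full-length reads of the gene. Both were adjusted by Benjamini-Hochberg, threshold 0.05, and tested on simulated data. Levels per gene were not divided by length. Shares have 95% Wilson intervals and levels 95% Poisson intervals, which cover counting error only. Unannotated models were matched by identical intron chains, with at least 2 reads in a library and 1 in the other. DESeq2 1.42.0 size factors and other settings were alternatives. SciPy 1.17.1 and Biopython 1.88 were used.

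Named genes were the 3 highest members of each complex, every member past the threshold or with 0 reads in a library, isoforms of members whose leading share was under 90% or passed, the 10 most read unannotated models found in both libraries, and, of the other pathway genes, the 3 highest of each list and the 2 widest ratios past the threshold in each direction. Other members and the splice forms were named after their values were seen. Members and gene lists were chosen with earlier results of these data known.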

Additional observations from a re-analysis of the deposited data

Results flagged for a closer look

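Eif4a-ps4, an annotated processed pseudogene of the helicase gene Eif4a1, is no member by the rule and was looked at because its reads exceeded the limit that a count of 0 allows in both libraries. It lies at chr1:60703932-60705149 on the plus strand and had 146 CPM in replicate 1 and 128 CPM in replicate 2, a mean of 137 ± 12.8 CPM (SD, n = 2). Its 1218 bases differ from the coding sequence of Eif4a1 at a single aligned position, so reads of the gene and of this copy cannot be told apart by gene counts. Of 12 copies that share at least 50% of a member's 31-base words, 9 had a read. Apart from Eif4a-ps4 and the pair Eif3j1 and Eif3j2, none of these copies had more than 8 reads in a library.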

How the results depend on the processing

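The number of members past the threshold was 12 as reported, 8 to 13 under 6 alternatives and 10 without models lacking the 3′ part, an alternative added after seeing the data. On full-length reads the members higher in replicate 1 numbered 3 in place of 6, and the pathway genes lower in replicate 1 numbered 1 in place of 3. Of 81 ratios of the 12 members under alternatives, 68 kept direction and threshold, 10 kept only the direction and 3 changed sign. Those that changed sign were Eif5, at -0.43 on full-length reads and -0.18 without models lacking the 3′ part, and Eif4g1, at 0.48 on full-length reads. The value of Eif4g1 came from 13 full-length reads in replicate 1 and 3 in replicate 2. None of these 3 ratios passed the threshold, so no difference in the other direction was found. For Eif5 the models lacking the 3′ part held 209 reads in replicate 1 and 6 in replicate 2, and for Eif4g1 the cause was not tested. Eif5b and Eif4ebp2 could not be tested on full-length reads, having under 10. Of 70 ratios of the pathway genes, 62 kept direction and threshold and 8 kept only the direction.

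On full-length reads, mean levels were 991 CPM for eIF5A, 326 CPM for Eif4a3 and 2095 CPM for start site selection, and without genomic reads the last was 1935 CPM. These differ from the main values by more than 1 SD, since the removed reads also leave the total. Sums of the other complexes moved by less in these settings. With 2 libraries, leaving out either cannot move a mean by 1 SD, so this was no check. With incomplete models counted among the others, 3 leading shares differed between libraries in place of 1, adding Eif5 (29.8% in replicate 1, 66.7% in replicate 2) and Eif3b (89.9%, 77.3%). Asking for at least 3 reads in each library left 4 of 15 unannotated models. No paired analysis was possible because there is 1 group of 2 libraries. Replicate 2 has the lower depth and limits all comparisons, and members under 10 reads were not tested.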
